A study of Rattus norvegicus with 10 samples.

Results

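Gene expression in the prefrontal cortex was compared with that in the caudate putamen of the rat, on the 4 arrays labelled for these regions out of 10 arrays in the study. The 4 were taken by their labels alone, and no measured value entered the choice. The study measured total RNA from 5 brain regions on single-colour oligonucleotide arrays, with 1 array for rats given cocaine and 1 for rats given saline in each region. The comparison therefore had 4 groups of 1 array: prefrontal cortex after saline, prefrontal cortex after cocaine, caudate putamen after saline and caudate putamen after cocaine. The strain, age, dose, route, duration of treatment, time of dissection and number of rats behind an array are not known from the sources used. Cocaine blocks the reuptake of dopamine, and both regions receive dopamine axons.

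The prefrontal cortex is built mainly of glutamatergic pyramidal neurons, with a minority of GABA interneurons. The caudate putamen, or dorsal striatum, is built mainly of GABA projection neurons that carry D1 dopamine receptors with substance P or D2 dopamine receptors with enkephalin. Bundles of myelinated axons cross the caudate putamen on their way from the cortex. In bulk tissue, fewer cells of a type and less RNA per cell cannot be told apart, and this holds for every difference given here.

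Each value is an expression index, a brightness on a linear scale that the dChip program computes from the probes of a probe set, and a value of exactly 0 was treated as missing. The median index lay between 2207.7 and 2309.0 on the 10 arrays. The prefrontal cocaine array stood apart from the other arrays. The arrays it was closest to went across the regions: its correlation was 0.965 with the amygdala saline array and 0.952 with the prefrontal saline array, while the amygdala cocaine array had 0.968 with the prefrontal saline array and 0.939 with the amygdala saline array. The 2 caudate arrays had 0.992 with each other. The prefrontal cocaine array held 226 values of 0, or 2.59% of its probe sets, against 17 to 19 on the other prefrontal and caudate arrays, and the amygdala saline array held 91 and the ventral tegmental cocaine array 120. Its median correlation with the other arrays, over the log2 index of the 5061 tested probe sets, was 0.910, the lowest of the 10, where the others lay between 0.928 and 0.967. Of these probe sets, 248 differed at least 1.5-fold between the 2 prefrontal arrays and 7 between the 2 caudate arrays. Calls were therefore also read on the 2 saline arrays and in a limma fit without that array. Where a named call did not pass in that fit, this is said beside it; the other named calls passed in it and had a saline ratio of at least 1.5-fold.

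The regional labels were set beside 4 marker genes. Cck and Olfm1, which encode the neuropeptide cholecystokinin and the secreted glycoprotein olfactomedin 1, were higher on both prefrontal arrays. Rgs9, a striatal regulator of G protein signalling, and Arpp21, a phosphoprotein regulated by cyclic AMP, were higher on both caudate arrays. The labels and the markers went the same way on all 4 arrays. Because the genes were chosen with earlier results of these data known, this is a description and not an independent check. On the amygdala saline and cocaine arrays, Cck had 20542 and 18366 and Olfm1 15793 and 17272. Rgs9 had 4581 and 4015 there, and Arpp21 3585 and 3773. These values were nearer to the prefrontal than to the caudate ones. An amygdala array in place of a prefrontal one would therefore show the same order. Penk and Pvalb differed between the prefrontal and amygdala arrays. Penk had 2462 and 2457 against 17900 and 15372 (saline and cocaine), and Pvalb 6775 and 6311 against 2464 and 2790. Both genes were picked for this after their values were seen, and the identity of the arrays was not tested.

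For the genes on which the comparison turns, the 250 bases upstream of the RefSeq start site are shown where the promoter table held them. The site is that of the annotation, and whether transcription begins there in these samples was not tested. Olfm1 and Syp stand for genes higher in the prefrontal cortex, and Tac1, Drd1 and Rgs9 for genes higher in the caudate putamen. The sequences are from RefSeq, build GRCr8, and lie at chr3:31931086-31931335 (plus strand) for Olfm1, chrX:17536450-17536699 (minus strand) for Syp, chr4:36645333-36645582 (plus strand) for Tac1, chr17:10546354-10546603 (plus strand) for Drd1 and chr10:94770388-94770637 (minus strand) for Rgs9. Each is written 5′ to 3′ on the strand of its gene, and capitals mark GC boxes, the letters GGGCGG on either strand, which read CCGCCC where the box lies on the other strand.
Olfm1: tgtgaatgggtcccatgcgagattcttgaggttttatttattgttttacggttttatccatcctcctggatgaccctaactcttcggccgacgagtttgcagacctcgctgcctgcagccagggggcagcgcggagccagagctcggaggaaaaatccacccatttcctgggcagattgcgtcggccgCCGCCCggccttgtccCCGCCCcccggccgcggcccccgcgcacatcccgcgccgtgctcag
Syp: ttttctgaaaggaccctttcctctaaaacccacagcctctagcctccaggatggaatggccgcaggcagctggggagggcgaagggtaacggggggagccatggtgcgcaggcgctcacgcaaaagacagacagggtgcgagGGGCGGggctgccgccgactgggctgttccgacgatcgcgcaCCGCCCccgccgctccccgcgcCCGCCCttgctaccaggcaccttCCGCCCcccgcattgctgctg
Tac1: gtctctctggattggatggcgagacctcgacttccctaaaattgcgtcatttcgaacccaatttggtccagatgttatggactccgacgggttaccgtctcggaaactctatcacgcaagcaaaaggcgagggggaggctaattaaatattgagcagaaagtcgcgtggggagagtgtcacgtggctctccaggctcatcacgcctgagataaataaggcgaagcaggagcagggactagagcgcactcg
Drd1: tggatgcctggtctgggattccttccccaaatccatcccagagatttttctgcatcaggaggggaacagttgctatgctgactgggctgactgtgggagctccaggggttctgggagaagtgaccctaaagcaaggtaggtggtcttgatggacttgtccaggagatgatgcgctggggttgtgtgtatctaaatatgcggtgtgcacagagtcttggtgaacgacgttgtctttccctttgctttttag
Rgs9: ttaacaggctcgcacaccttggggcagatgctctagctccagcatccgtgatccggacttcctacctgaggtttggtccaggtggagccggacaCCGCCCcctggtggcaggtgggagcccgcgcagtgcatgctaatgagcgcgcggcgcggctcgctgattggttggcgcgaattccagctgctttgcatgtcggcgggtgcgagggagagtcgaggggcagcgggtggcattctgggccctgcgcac
The Olfm1 stretch held 2 GC boxes, that of Syp 4, that of Rgs9 1, and those of Tac1 and Drd1 0. A GC box was found in 32.4% of the 27457 rat promoters of this length and in 57.3% of the 2574 found for the genes tested. It was found in 35 of the 51 promoters of genes higher in the prefrontal cortex, or 68.6%, and in 52 of the 90 of genes higher in the caudate putamen, or 57.8%. These matches describe letters in a window and were given no test.

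Differences were tested with limma on the log2 index of all 10 arrays, with region and treatment as terms and p-values adjusted over all probe sets tested by the Benjamini-Hochberg method. A difference is the log2 index in the prefrontal cortex minus that in the caudate putamen, so that a positive value is higher in the prefrontal cortex. It is given ± the standard error of the fit, over 2 arrays a region. Of 5061 probe sets, 231 passed an adjusted p of 0.05, or 4.56%, of which 84 (1.66%) were higher in the prefrontal cortex and 147 (2.90%) higher in the caudate putamen. An unadjusted p under 0.05 was reached by 842. Those 231 included 196 with 1 gene symbol, standing for 170 genes. A fold of at least 2 was reached by 66 of the 231 (1.30% of those tested), 25 higher in the prefrontal cortex and 41 in the caudate putamen, and a fold of at least 4 by 5 and 9. The labels do not say whether arrays came from separate rats, so the spread behind each p-value is that between these arrays and may be technical in part, and the number of arrays limits the precision.

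The number of calls moved with the arrays in the fit. Without the prefrontal cocaine array 92 passed (1.82%), 52 higher in the prefrontal cortex and 40 in the caudate putamen. Leaving out the prefrontal saline array gave 170, with 38 higher in the prefrontal cortex and 132 in the caudate putamen. Without the caudate cocaine array 39 passed, and without the caudate saline array 29. A fit without the amygdala arrays, which are on neither side of the comparison but enter the estimate of the spread, gave 525, and the fit of the 4 arrays alone gave 351.

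**Figure D1:**
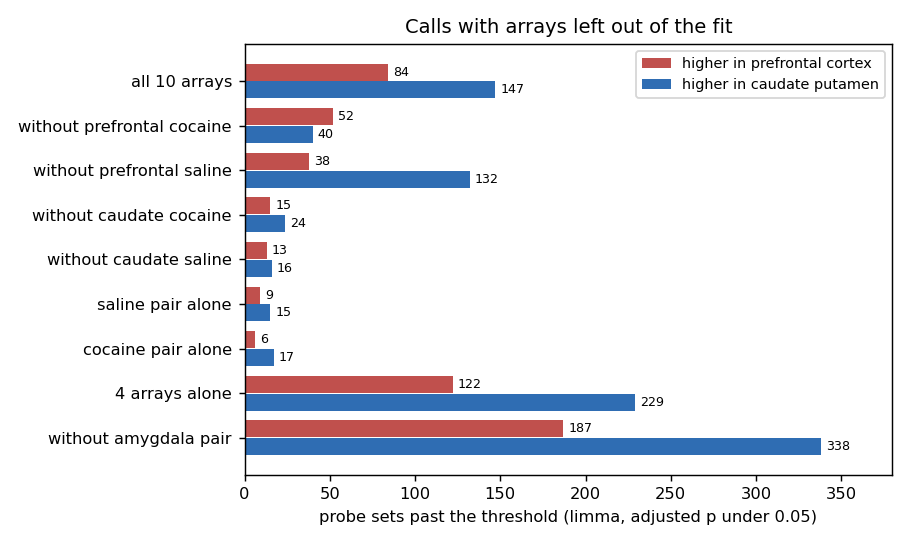
Bars give the number of probe sets past the limma threshold (adjusted p under 0.05, horizontal axis) with the arrays named on the vertical axis left out or kept, in red those higher in the prefrontal cortex and in blue those higher in the caudate putamen. With all 10 arrays the bars stand at 84 and 147, and with the saline pair alone at 9 and 15.

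The saline pair carried most differences in favour of the prefrontal cortex and fewer of those in favour of the caudate putamen. Of the 84 probe sets higher in the prefrontal cortex, 78 had a saline ratio of at least 1.5-fold in that direction, which 2.96% of all tested probe sets had. For the caudate putamen this count was 93 of 147, with 2.41% of all tested probe sets. The cocaine arrays gave 61 of 84 and 123 of 147, where 5.20% and 5.45% of all tested probe sets had such a ratio in the same direction. All 231 had the same sign in both treatment pairs. The median log2 ratio of the 84 was 0.88 on the saline and 0.74 on the cocaine arrays, and that of the 147 was -0.64 and -0.85, where all tested probe sets had medians of -0.011 and 0.051. The median log2 ratio of the prefrontal cocaine over the prefrontal saline array was -0.17 for the 84 and -0.23 for the 147. Between the caudate arrays the same medians were -0.01 and -0.07. Over all tested probe sets this shift moved with brightness. In the lowest quartile of mean index the prefrontal median was 0.07, and in the highest -0.09. The caudate medians there were -0.01 and -0.05. Because these counts and medians use the arrays that made the calls, they are a description.

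**Figure D2:**
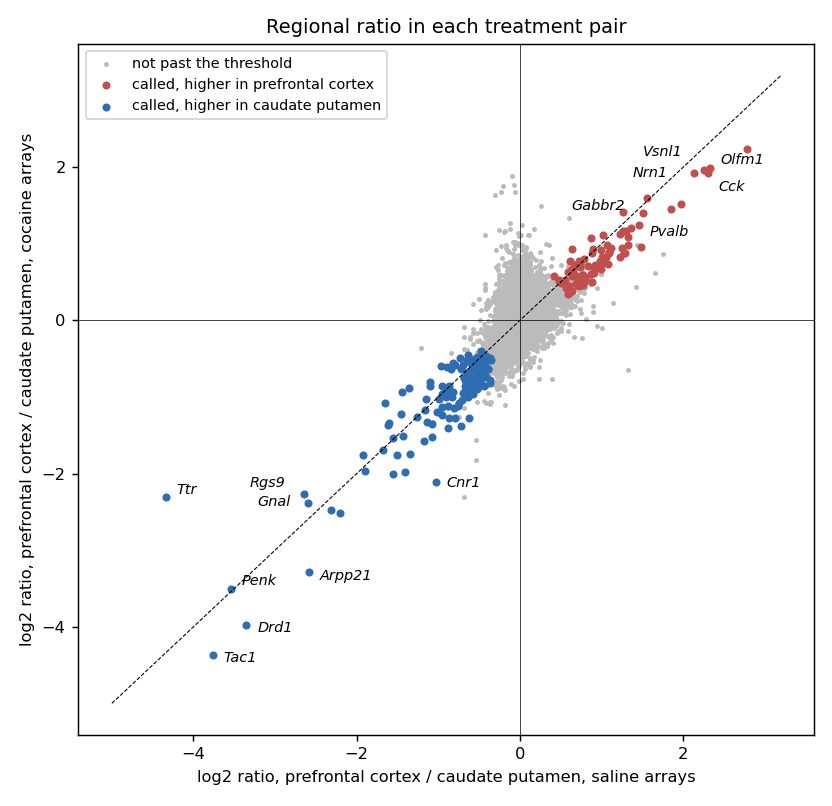
Each point is 1 of the 5061 tested probe sets, with its log2 ratio of prefrontal cortex over caudate putamen on the saline arrays (horizontal axis) and on the cocaine arrays (vertical axis), and the dashed line marks equal ratios. Probe sets past the limma threshold are red where higher in the prefrontal cortex and blue where higher in the caudate putamen. Ttr lies far left of the line with -4.34 on the saline arrays and -2.31 on the cocaine arrays, and Cnr1 lies below it.

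With the saline pair alone, and the spread taken from the other regions, limma passed 24 probe sets (0.474%), all of which had also passed with all arrays. The 9 higher in the prefrontal cortex were both probe sets of Olfm1, 1 each of Vsnl1, Nrn1, Gabbr2, Basp1 and Stx1a, and 2 without a symbol. The 15 higher in the caudate putamen were those of Tac1, Penk, Drd1, Drd2, Adora2a, Rgs9, Gnal, Gng7, Arpp21, Ptpn5, Pcp4, Rxrg, Ttr, Enpp2 and Mog. Of the 66 probe sets that reached 2-fold, the saline ratio was also at least 2-fold for 25 of 25 higher in the prefrontal cortex and for 33 of 41 higher in the caudate putamen. The 8 others were 1 probe set each of Cnp, Car2, Resp18 and Myo5b and 4 without a single gene symbol, and those of Car2, Resp18 and Myo5b did not pass without the prefrontal cocaine array.

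The 4 named genes with the largest differences in favour of the prefrontal cortex were Olfm1, Vsnl1, Cck and Nrn1. Olfm1 had an index of 23234 on the prefrontal saline array and 18953 on the prefrontal cocaine array, against 4613 and 4758 on the caudate saline and caudate cocaine arrays. Both prefrontal values lay far above both caudate values, with a difference of 2.16 ± 0.12 (limma, adjusted p = 8.21e-05) and a saline ratio of 5.04-fold. A second Olfm1 probe set gave 2.51 ± 0.15, with 16957 and 12202 against 2470 and 2586. For Cck, the prefrontal arrays gave 28113 (saline) and 27640 (cocaine) and the caudate arrays 5707 and 7238. The regions did not overlap for Cck, and the difference was 2.12 ± 0.26 (limma, adjusted p = 0.00431, and 0.0163 without the prefrontal cocaine array), with a saline ratio of 4.93-fold.

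Vsnl1 encodes visinin-like protein 1, a neuronal calcium sensor. Its index was 13096 (saline) and 10778 (cocaine) in the prefrontal cortex against 2739 and 2768 in the caudate putamen. The caudate arrays were nearly equal, and the difference was 2.11 ± 0.13 (limma, adjusted p = 0.000108). Nrn1 encodes neuritin, a membrane-anchored protein that promotes neurite growth. It stood at 9850 and 9186 in the prefrontal cortex and at 2239 and 2423 in the caudate putamen, a difference of 2.03 ± 0.16 (limma, adjusted p = 0.000494). The saline ratios were 4.78-fold for Vsnl1 and 4.40-fold for Nrn1.

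These 4 genes belong to a list of 38 genes of cortical excitatory neurons, of which 23 were on the array and 19 tested. Of the 19, 6 were higher in the prefrontal cortex (with Rasgrf1 and Sv2b), 1 was higher in the caudate putamen and 12 did not pass. Each listed gene was counted on 1 probe set, its brightest; over all 3172 genes counted so, 1.54% were higher in the prefrontal cortex and 2.99% in the caudate putamen. The median difference of the list was 0.20, against 0.031 over all tested probe sets. It was 0.14 on the saline and 0.31 on the cocaine arrays, where all tested probe sets had -0.011 and 0.051. A positive difference was found for 17 of the 19, where 43.4% of all 3172 genes had a negative one. Rasgrf1, a calcium-activated exchange factor for Ras, had 6138 and 4288 in the prefrontal cortex and 2830 and 2224 in the caudate putamen. The exception was Hpca, the calcium sensor hippocalcin, at 16127 and 15185 in the prefrontal cortex and 24591 and 25411 in the caudate putamen, a difference of -0.68 ± 0.09 (limma, adjusted p = 0.0081, and 0.0544 without the prefrontal cocaine array). The transcription factor Neurod2 had 2699 and 2945 against 2456 and 2708, values that overlap between the regions.

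**Figure D3:**
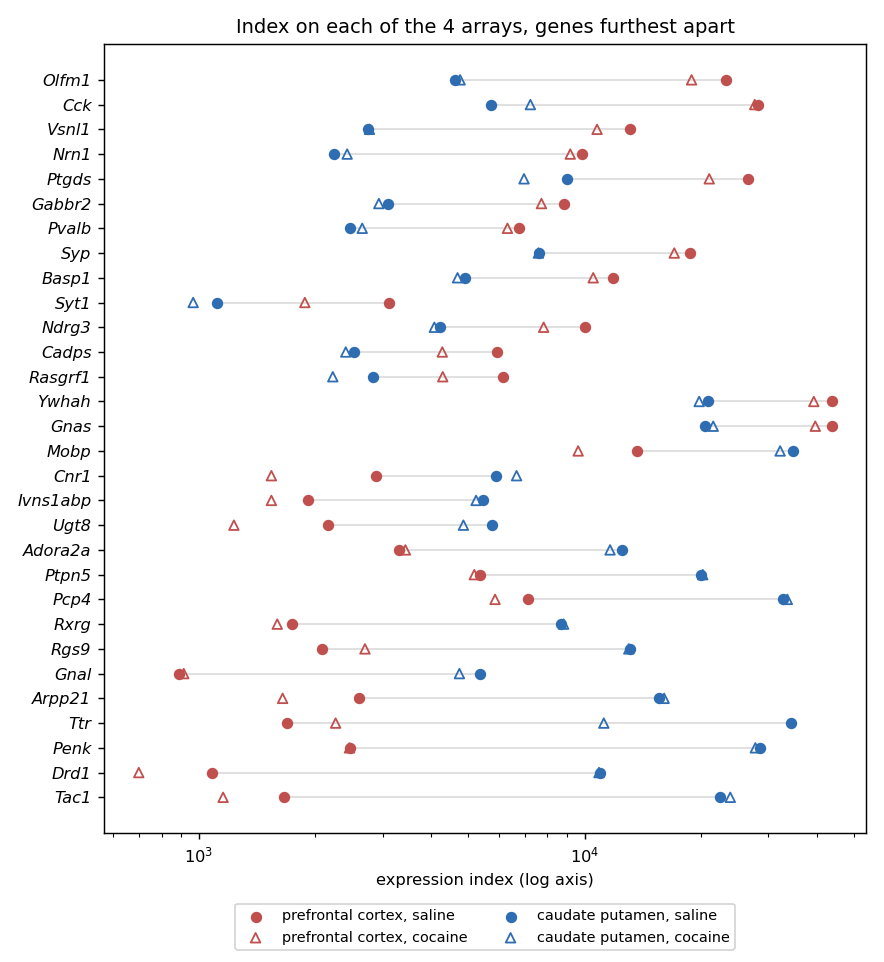
Points give the expression index (log axis) on each of the 4 arrays for the 15 genes furthest above and the 15 furthest below in the prefrontal cortex against the caudate putamen, filled circles for saline, open triangles for cocaine, red for the prefrontal cortex and blue for the caudate putamen. No gene shown has overlapping regions, which comes with the choice of genes, since none of the 84 and 147 called probe sets had overlap. The share without overlap over all tested probe sets was not counted, so a lack of overlap, here and in the text, only describes the values. Gad1 and Mbp, named in the text, had no overlap and did not pass. The red triangles of Cnr1, Ugt8, Arpp21 and Drd1 lie left of the red circles.

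Genes of the presynaptic terminal were higher in the prefrontal cortex wherever they passed. Of 36 tested genes of synaptic vesicles and release, 9 were higher in the prefrontal cortex and 0 in the caudate putamen, with a median of 0.28; 4 of the 9 also passed without the prefrontal cocaine array. Syp, which encodes the vesicle protein synaptophysin and whose promoter with 4 GC boxes is printed above, had 18743 and 17093 on the prefrontal saline and cocaine arrays and 7618 and 7594 on the caudate arrays. Its difference of 1.23 ± 0.11 (limma, adjusted p = 0.00111) had a saline ratio of 2.46-fold. Syt1, the calcium sensor of vesicle fusion, had 3106 and 1882 against 1115 and 966, with the prefrontal cocaine value well below the saline value (difference 1.22 ± 0.25). Snap25, a subunit of the fusion complex, had 34474 and 33725 against 20783 and 19725, with no overlap between the regions. The others were Dnm1, the dynamin of vesicle recovery (0.91 ± 0.14), Sv2b (0.88 ± 0.14), Rab3a (0.77 ± 0.14), Vamp2 (0.64 ± 0.10), Sv2a (0.54 ± 0.09) and Snap91 (0.49 ± 0.11). Snap25, Rab3a, Vamp2, Sv2a and Snap91 were the 5 that did not pass without the prefrontal cocaine array.

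Stx1a, syntaxin 1A of the same fusion complex, gave different answers by probe set. One probe set had 7648 and 5831 in the prefrontal cortex against 1958 and 2035 in the caudate putamen, a difference of 1.74 ± 0.18 (limma, adjusted p = 0.00181). The brighter probe set, which stands for the gene in the lists, had 16317 and 15905 against 14581 and 14767, a difference of 0.13 ± 0.11 that did not pass (limma, adjusted p = 0.606). Nrgn, which encodes the postsynaptic calmodulin-binding protein neurogranin, also split, with 0.63 ± 0.10 past the threshold on one probe set, though not without the prefrontal cocaine array, and 0.32 ± 0.12 not past it on the brighter one. Beside Stx1a, Syn2, a synapsin, was the other vesicle gene that passed only on probe sets other than its brightest, with 0.77 ± 0.14 and 0.69 ± 0.12, and neither passed without the prefrontal cocaine array.

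Neurite and cytoskeleton genes formed the other group higher in the prefrontal cortex. Of 35 tested, 8 were higher in the prefrontal cortex and 0 in the caudate putamen, with a median of 0.27, and 5 of the 8 passed without the prefrontal cocaine array. Basp1, a membrane protein of growing axons, had 11865 and 10534 on the prefrontal arrays and 4908 and 4685 on the caudate arrays, a difference of 1.22 ± 0.10 (limma, adjusted p = 0.000691). Both prefrontal values were above both caudate values for Basp1, and the saline ratio was 2.42-fold. Stmn1, the microtubule regulator stathmin, had 16599 and 14186 against 8249 and 8453, and its adjusted p of 0.0194 in limma became 0.0512 without the prefrontal cocaine array. The cell adhesion genes Opcml and Ntm differed by 0.83 ± 0.11 and 0.50 ± 0.11, and the neurofilament-like Ina by 0.79 ± 0.13, Thy1 by 0.70 ± 0.15 and the tubulin Tubb5 by 0.59 ± 0.10. Ntm and Tubb5 did not pass without the prefrontal cocaine array. Map2, a microtubule protein of dendrites, passed on a probe set other than its brightest (0.61 ± 0.10), and not without that array.

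Among inhibitory genes, Gabbr2, a subunit of the GABA-B receptor, had 8843 and 7732 in the prefrontal cortex and 3098 and 2928 in the caudate putamen. That was a difference of 1.46 ± 0.12 (limma, adjusted p = 0.000691), with a saline ratio of 2.85-fold, but its 2 other probe sets gave 0.28 ± 0.12 and 0.22 ± 0.09 and did not pass. No other of the 12 GABA receptor genes tested passed. Pvalb, the calcium buffer parvalbumin of fast-spiking interneurons, had 6775 and 6311 against 2468 and 2651, a difference of 1.35 ± 0.27 (limma, adjusted p = 0.0286, and 0.0598 without the prefrontal cocaine array). Pvalb was the only one of 18 tested interneuron genes past the threshold, and the list's median was 0.05. Gad1, which makes GABA, had 5857 and 4245 in the prefrontal cortex and 9870 and 10191 in the caudate putamen, without overlap, but its difference of -1.01 ± 0.28 did not pass (limma, adjusted p = 0.102). Sst and Npy, peptides of other interneurons, gave 0.37 ± 0.34 and -0.03 ± 0.17 and did not pass.

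Of the other genes furthest above in the prefrontal cortex, Ywhah, the 14-3-3 protein eta, had 43759 and 39331 against 20909 and 19836, and Gnas, the G protein subunit that stimulates adenylyl cyclase, 43797 and 39682 against 20590 and 21571. Their differences were 1.03 ± 0.09 and 0.98 ± 0.12, with no overlap between the regions. Ndrg3 had 10018 and 7835 against 4213 and 4078. Cadps, which primes dense-core vesicles for release, had 5934 and 4277 against 2522 and 2403. All 4 also passed limma without the prefrontal cocaine array, with adjusted p-values between 0.00518 and 0.017.

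On the caudate side, the genes furthest apart were those of striatal projection neurons. Of 42 listed genes, 27 were on the array and 24 tested; 17 were higher in the caudate putamen, 0 in the prefrontal cortex and 7 did not pass. The list's median difference was -1.25, with -1.31 on the saline and -1.12 on the cocaine arrays, and 16 of the 17 had a saline ratio of at least 1.5-fold. Without the prefrontal cocaine array 15 of the 17 passed, all but Actn2 and Pde1b. The list was written with earlier results of these arrays known, so its direction is not independent evidence.

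The peptide precursors came first. Tac1, which encodes the precursor of substance P, had 1657 on the prefrontal saline and 1155 on the prefrontal cocaine array, against 22518 and 23885 on the caudate arrays. Both caudate values were more than 10 times both prefrontal values, with a difference of -4.07 ± 0.23 (limma, adjusted p = 8.21e-05), 13.6-fold on the saline and 20.7-fold on the cocaine arrays. Penk, the enkephalin precursor, had 2462 and 2457 against 28595 and 27745. The treatments were closer together for Penk than for Tac1, and its difference was -3.52 ± 0.10 (limma, adjusted p = 2.19e-06), 11.6-fold on the saline and 11.3-fold on the cocaine arrays. Pdyn, the dynorphin precursor, did not follow on the probe set that stood for it in the lists: it had 8853 and 10191 against 9053 and 8489, values that overlap.

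A second Tac1 probe set was not tested because it was listed at 0 on the prefrontal cocaine array. On the other arrays it had 1330 in the prefrontal saline sample and 10366 and 8708 in the caudate putamen. Of 183 probe sets bright enough to test but with a 0 on 1 of the 4 arrays or more, 161 had it on the prefrontal cocaine array. The saline ratio of 163 could be formed; 2 of these were at least 2-fold higher in the caudate putamen, this one and 1 of Ppp2r2a, a regulatory subunit of protein phosphatase 2A, and 0 were at least 2-fold higher in the prefrontal cortex.

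The receptors that mark the projection neurons came next. Drd1, the D1 dopamine receptor, had 1081 and 698 on the prefrontal saline and cocaine arrays and 11001 and 10904 on the caudate arrays. The caudate arrays were nearly equal while the prefrontal cocaine value was the lowest of the 4, which gave 10.2-fold on the saline and 15.6-fold on the cocaine arrays (difference -3.66 ± 0.19, limma, adjusted p = 6.92e-05). A dimmer Drd1 probe set also passed, with -1.68 ± 0.13. Drd2, the D2 receptor, had 1727 and 2355 against 5405 and 4977, a smaller difference of -1.36 ± 0.15 (limma, adjusted p = 0.00268). Adora2a, an adenosine receptor found with D2 in the same cells, had 3301 and 3431 against 12524 and 11648. It did not overlap between the regions and differed by -1.84 ± 0.11, 3.79-fold on the saline and 3.39-fold on the cocaine arrays.

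The cannabinoid receptor Cnr1 rested more on the prefrontal cocaine array. It had 2875 and 1541 in the prefrontal cortex against 5880 and 6665 in the caudate putamen, which is 2.05-fold on the saline and 4.33-fold on the cocaine arrays. Its difference of -1.57 ± 0.34 passed limma with an adjusted p of 0.0447, and without the prefrontal cocaine array the adjusted p was 0.259. Drd1, Drd2, Adora2a and Cnr1 were the 4 of 40 tested monoamine, acetylcholine, opioid and peptide receptor genes that passed. All 4 were higher in the caudate putamen, and the median of the 40 was 0.032. The third dopamine receptor, Drd3, had 4354 and 7081 against 4816 and 4483 and did not pass.

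Genes of signalling downstream of these receptors lay on both sides of the comparison, and those with the largest differences were higher in the caudate putamen. Gnal encodes the G protein subunit that couples striatal D1 and adenosine receptors to adenylyl cyclase. It had 885 and 913 in the prefrontal cortex and 5359 and 4737 in the caudate putamen, a difference of -2.49 ± 0.13 (limma, adjusted p = 6.92e-05), while Gnas, its relative, ran the other way as given above. Rgs9 had 2087 and 2695 against 13115 and 13031, with a saline ratio of 6.28-fold and a cocaine ratio of 4.83-fold (difference -2.46 ± 0.13). Arpp21 had 2606 and 1648 against 15635 and 16092, 6.0-fold on the saline and 9.76-fold on the cocaine arrays (difference -2.94 ± 0.22), and its second probe set gave -0.63 ± 0.17 and did not pass. The G protein gamma subunit Gng7 had 5881 and 6819 against 16217 and 15862.

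Of 38 tested genes of cyclic AMP and G protein signalling, 11 had more signal in the caudate putamen and 3 more in the prefrontal cortex, with a median of -0.14. The 11 included Adcy5, the main striatal adenylyl cyclase (-0.86 ± 0.11), the phosphodiesterases Pde1b, Pde2a and Pde4b, the phosphatase inhibitor Ppp1r1a (-0.87 ± 0.13) and the phosphatase subunit Ppp1cc (-0.83 ± 0.15). The 3 were Gnas, Prkar1b, a regulatory subunit of protein kinase A (0.88 ± 0.13), and Adcy2, another cyclase (0.52 ± 0.09). Adenylyl cyclases and G protein alpha subunits thus lay on both sides of the comparison. Without the prefrontal cocaine array 7 of the 14 passed, namely Arpp21, Gnal, Rgs9, Gng7, Adcy5, Gnas and Prkar1b.

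Other genes of the striatal list were also higher in the caudate putamen. Ptpn5, the striatum-enriched tyrosine phosphatase, had 5367 and 5178 in the prefrontal cortex and 20050 and 20262 in the caudate putamen (-1.93 ± 0.09). Pcp4, a calmodulin-binding peptide, had 7127 and 5861 against 32731 and 33583 (-2.36 ± 0.12), and its relative Pcp4l1 had 1585 and 1680 against 3543 and 3779 (-1.17 ± 0.10). Rxrg, the retinoid X receptor gamma, had 1746 and 1596 against 8696 and 8827 (-2.39 ± 0.10). In all 4 genes both treatments of a region lay close together, and the regions did not overlap. Of 20 tested nuclear receptor and retinoid binding genes Rxrg passed. Rbp4, a retinol carrier in the same list, did not pass on its brightest probe set (-0.36 ± 0.11) but did on both others (-1.30 ± 0.23 and -0.75 ± 0.13), though not without the prefrontal cocaine array. Ivns1abp, an actin-associated protein outside the list, had 1916 and 1541 against 5448 and 5233 (-1.64 ± 0.18).

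**Figure D4:**
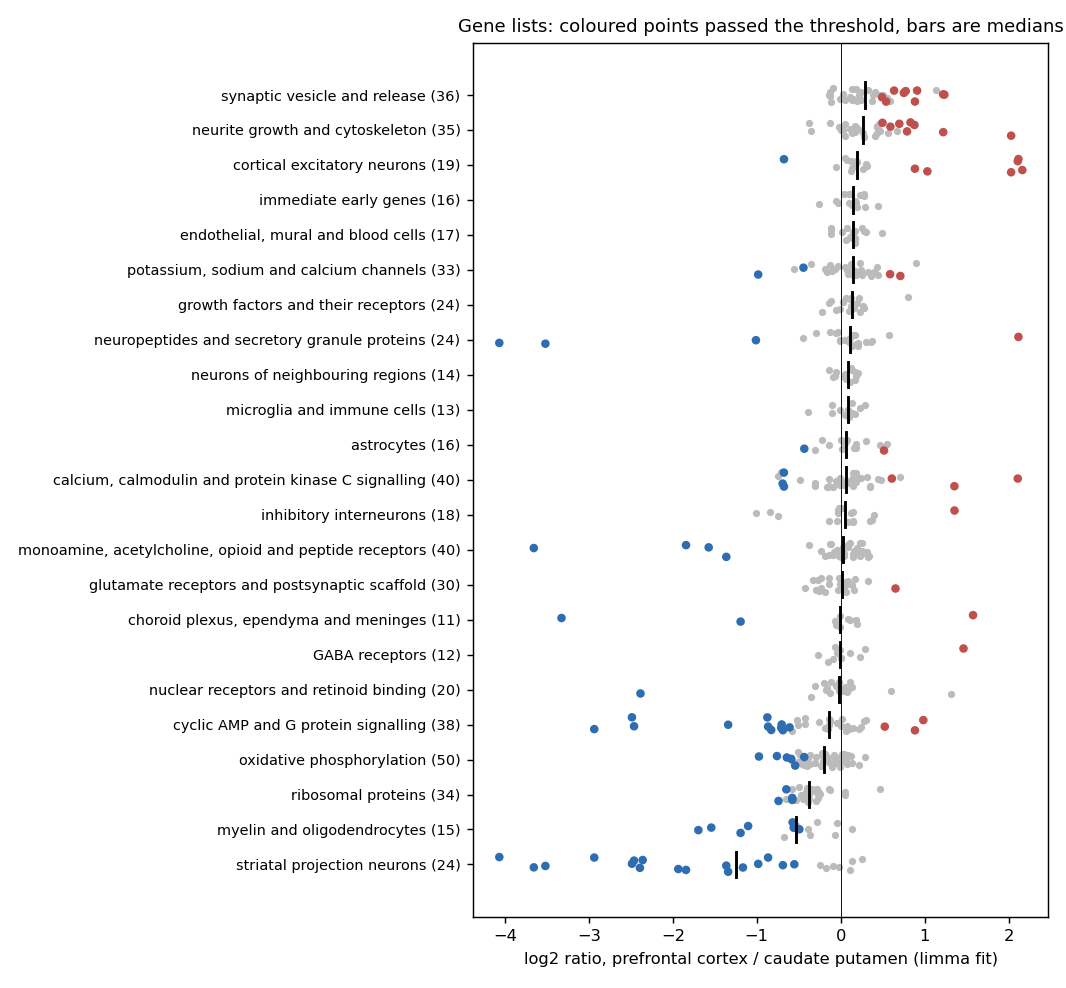
Each row is 1 gene list with its number of tested genes in parentheses, each point a gene's log2 difference of prefrontal cortex minus caudate putamen in the limma fit (horizontal axis), and the bar the list's median. Points past the threshold are red where higher in the prefrontal cortex and blue where higher in the caudate putamen, and grey points did not pass. Striatal projection neuron genes have the lowest median, at -1.25, and synaptic vesicle genes the highest, at 0.28. That top rank did not hold on the saline arrays, where synaptic vesicle genes had 0.18 and neurite and cytoskeleton genes 0.31. The cocaine arrays gave 0.43 and 0.28 for these lists.

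Myelin genes that passed were all higher in the caudate putamen. Of 15 tested, 7 were higher there (Ugt8, Mobp, Enpp2, Cnp, Car2, Pllp and Mal), 0 in the prefrontal cortex, and the median was -0.53, with -0.57 on the saline and -0.52 on the cocaine arrays. Mobp, a myelin protein of oligodendrocytes, had 13696 and 9629 against 34779 and 32167, a difference of -1.54 ± 0.17 (limma, adjusted p = 0.00287). Its 3 dimmer probe sets ranged from -1.78 to -0.39, the last of which did not pass. Ugt8, which makes the myelin lipid galactocerebroside, had 2160 and 1232 against 5753 and 4852. Both genes had their lowest value on the prefrontal cocaine array, and the adjusted p of Ugt8 in limma went from 0.0128 to 0.0531 without it. Cnp, a myelin enzyme, had 10200 and 7792 against 19899 and 18425. The most abundant myelin gene by name, Mbp, had 36779 and 36194 against 48824 and 45616, without overlap, and did not pass (-0.37 ± 0.12).

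The summed index of the 15 myelin genes was 121009 and 114727 on the prefrontal saline and cocaine arrays and 193246 and 179669 on the caudate arrays. Without the prefrontal cocaine array 2 of the 7 passed, Mobp and Cnp, while 5 of the 7 had a saline ratio of at least 1.5-fold. Mog, a protein of the outer myelin surface, had 1 probe set past the threshold, at -1.54 ± 0.12, and a brighter one at -0.53 ± 0.13 that did not pass (limma, adjusted p = 0.0736). The Enpp2 probe set named above with the saline pair is not the one counted here. It is a dimmer one, with -1.48 ± 0.18 and a saline ratio of 3.04-fold. Whether more oligodendrocytes or white matter in the caudate samples had a part in other differences was not tested.

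Genes of the choroid plexus and meninges differed between single arrays as well as between regions. Ttr, the thyroid hormone carrier transthyretin made by the choroid plexus, had 1692 and 2262 in the prefrontal cortex, 34312 on the caudate saline and 11221 on the caudate cocaine array. The caudate arrays thus differed from each other, with a log2 ratio of cocaine over saline of -1.61, and the ratio to the prefrontal cortex was 20.3-fold on the saline and 4.96-fold on the cocaine arrays (difference -3.33 ± 0.42, limma, adjusted p = 0.00447). Enpp2, also known from choroid plexus and from oligodendrocytes, had 3259 and 2802 against 8860 and 5392, again highest on the caudate saline array (limma, adjusted p = 0.0116, and 0.0525 without the prefrontal cocaine array). Ptgds, a prostaglandin synthase of meninges and choroid plexus, ran the other way with 26517 and 21064 against 9016 and 6968 (1.58 ± 0.33, limma, adjusted p = 0.0355, and 0.137 without the prefrontal cocaine array).

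These were the only 3 of 11 choroid plexus, ependyma and meninges genes that passed. The list's summed index was 61400 and 59764 on the prefrontal saline and cocaine arrays and 83250 and 53996 on the caudate arrays, so the caudate arrays lay on both sides of the prefrontal ones. The part of such tissue in the differences of other genes was not tested.

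Markers of the remaining cell types differed less. Of 16 astrocyte genes, Glul, glutamine synthetase, was higher in the prefrontal cortex (0.52 ± 0.11) and Slc4a4, a bicarbonate transporter, in the caudate putamen (-0.43 ± 0.09), with neither past the threshold when each array was scaled to the same median and Slc4a4 not past it without the prefrontal cocaine array. Of 13 microglia and immune genes, 17 endothelial, mural and blood genes and 14 genes of neurons of neighbouring regions, 0 passed in limma. The gene of each nearest to the threshold was Ctss with -0.39 ± 0.14, Hbb with 0.30 ± 0.13 and Oxt with 0.18 ± 0.12. The summed index of the neighbouring neurons list, which includes the dopamine neuron genes Th and Slc6a3, was 45525 and 50890 on the prefrontal arrays and 46186 and 46204 on the caudate arrays. No tested member of any list was at 0 on these 4 arrays, since a 0 kept a probe set out of the test.

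A few ribosomal and mitochondrial genes were higher in the caudate putamen, by small amounts, and none of them passed without the prefrontal cocaine array. Of 34 tested ribosomal protein genes, 4 were higher in the caudate putamen on their brightest probe set, and Rpl3, Rpl11 and Rpl6 passed on another probe set only. A negative difference was found for 31 of the 34, against 43.4% of all 3172 genes, with a list median of -0.38 that was -0.25 on the saline and -0.50 on the cocaine arrays. Rpl36 had 11334 and 9269 in the prefrontal cortex and 17137 and 17115 in the caudate putamen (-0.74 ± 0.14), and Rps16 had 19677 and 15784 against 26312 and 26280 (-0.58 ± 0.11). In both genes the prefrontal cocaine array was the lowest. Rps15 had 19333 and 14242 against 26305 and 25704, but another of its probe sets gave 0.26 ± 0.23. Without the prefrontal cocaine array, 0 of the 4 passed limma, and 1 of the 4 had a saline ratio of at least 1.5-fold.

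Of 50 tested genes of oxidative phosphorylation, 6 were higher in the caudate putamen, 39 had a negative difference and the median was -0.20; Atp5f1e passed on another probe set only. Ndufs4, a subunit of respiratory complex I, had 4214 and 2912 against 7381 and 6415 (-0.97 ± 0.15). Ndufa4 had 14386 and 14275 against 22286 and 19542 (-0.54 ± 0.10), with the prefrontal arrays nearly equal. A saline ratio of at least 1.5-fold was found for 4 of the 6, and 0 passed limma without the prefrontal cocaine array. The medians of both lists kept their sign when arrays were scaled to the same median (-0.42 and -0.23) and under quantile normalization (-0.28 and -0.12).

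Most tested genes of other neuronal families did not pass. Over all 3172 genes, each on its brightest probe set, 1.54% were higher in the prefrontal cortex and 2.99% in the caudate putamen. The channel counts given here, and the calcium and neuropeptide counts given next, lay above both shares. Of 30 glutamate receptor and postsynaptic scaffold genes, Dlgap1, a scaffold protein, was the only one past the threshold (0.65 ± 0.10, limma, adjusted p = 0.0144, and 0.106 without the prefrontal cocaine array), and the median was 0.0093. Of 33 channel genes, Kcnab2 (0.71 ± 0.09) and Kcnk1 (0.59 ± 0.13) were higher in the prefrontal cortex and Kcnab1 (-0.98 ± 0.12) and Kcna4 (-0.44 ± 0.10) in the caudate putamen. Kcna4 had a saline ratio of 1.34-fold, and its adjusted p in limma went from 0.0487 to 0.234 without the prefrontal cocaine array. The potassium channel beta subunits Kcnab1 and Kcnab2 thus differed in opposite directions. Kcnab1 had 3427 and 3251 in the prefrontal cortex against 7351 and 5919, and Kcnab2 had 9467 and 9437 against 5858 and 5696, with no overlap between the regions for either gene. A second probe set of Kcnab2 gave 0.26 ± 0.13 and did not pass.

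Of 40 genes of calcium, calmodulin and protein kinase C signalling, Vsnl1, Pvalb and Camkk1 were higher in the prefrontal cortex and Atp2b1, Itpr1 and Hpca in the caudate putamen. Of these 6, Vsnl1 passed limma without the prefrontal cocaine array; the adjusted p there was 0.0544 for Hpca, 0.0598 for Pvalb, 0.0599 for Camkk1, 0.0731 for Itpr1 and 0.113 for Atp2b1. Atp2b2, a calcium pump, passed on a probe set other than its brightest (0.64 ± 0.14). Itpr1, the calcium release channel of internal stores, passed on its brightest probe set (-0.69 ± 0.10), while its 2 other tested probe sets gave -0.08 ± 0.11 and -0.24 ± 0.11 and did not pass. Of 24 neuropeptide and secretory granule genes, Cck was higher in the prefrontal cortex and Tac1, Penk and Resp18 in the caudate putamen, with an adjusted p in limma of 0.0525 for Resp18 without the prefrontal cocaine array. On their brightest probe sets, 0 of 24 growth factor and receptor genes and 0 of 16 immediate early genes passed in limma. Nearest to the threshold among these probe sets were the neurotrophin receptor Ntrk2, with 5290 and 3839 against 2639 and 2515 (0.81 ± 0.20, adjusted p = 0.0713), and Arc, with 7550 and 8417 against 6674 and 6925 (0.23 ± 0.10, adjusted p = 0.277). Other probe sets of 2 immediate early genes came nearer or passed. Nptx2, a neuronal pentraxin, passed on a dimmer one (0.72 ± 0.10, limma, adjusted p = 0.00912, and 0.0599 without the prefrontal cocaine array). Homer1, a postsynaptic scaffold, had a probe set with 5794 and 4476 against 2160 and 3303 (0.93 ± 0.21, limma, adjusted p = 0.0549), whereas its brightest gave -0.26 ± 0.16.

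More calls on the caudate side than on the prefrontal side had a small saline ratio. Of the 147, 54 had a saline ratio under 1.5-fold, against 6 of the 84 on the prefrontal side. Counting each gene on its brightest probe set, the 6 among them with the largest cocaine ratios were Ggh, a folate hydrolase, with 1.49-fold on the saline and 1.95-fold on the cocaine arrays, Pde4b with 1.46 and 1.83, Rps15 with 1.36 and 1.80, Itpr1 with 1.46 and 1.79, Lxn with 1.37 and 1.79, and Pde2a with 1.49 and 1.78. None of the 6 passed limma without the prefrontal cocaine array, where their adjusted p-values lay between 0.0731 and 0.276. In Ggh the prefrontal arrays had 3170 (saline) and 2392 (cocaine) and the caudate arrays 4720 and 4662, so the prefrontal cocaine value made the difference larger. In Lxn and Itpr1 the caudate cocaine value (3607 and 11617) was also above the caudate saline value (3110 and 11066).

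The same probe sets were then read on arrays that had no part in the contrast, the nucleus accumbens, which is the ventral part of the striatum, and the amygdala, part of which resembles cortex. These arrays entered the fit only through its estimate of the spread and the treatment term. Of the 147 probe sets higher in the caudate putamen, 146 had values on all 4 of those arrays, and 128 of them were higher in the nucleus accumbens, with a median log2 ratio of 0.22. Of the 84 higher in the prefrontal cortex, 83 had values and 71 were higher in the amygdala, with a median of -0.23. Over all tested probe sets 2463 of 4996, or 49.3%, were higher in the nucleus accumbens, with a median of -0.003. Where the fold was 2 or more, the counts were 36 of 41 and 23 of 25, with medians of 0.35 and -0.52. Because the amygdala saline array was close to the prefrontal cocaine array, the pairs were also read one at a time, a choice made after the data were seen. On the cocaine arrays, which leave the amygdala saline array out, 122 of 147 were higher in the nucleus accumbens and 72 of 83 higher in the amygdala, where 52.7% of all probe sets were higher in the nucleus accumbens. The saline arrays gave 126 of 146 and 61 of 84, with 46.4% of all probe sets higher in the nucleus accumbens. The amygdala cocaine array in turn had a correlation of 0.968 with the prefrontal saline array, so neither pair is free of such closeness.

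Named genes spread over that range. Penk, with 21566 (saline) and 20576 (cocaine) in the nucleus accumbens, was also high in the amygdala at 17900 and 15372. Ttr went against the order, and was low in the nucleus accumbens at 1700 and 1832 and high in the amygdala at 41154 and 29441. Pvalb had 2480 and 2712 in the nucleus accumbens and 2464 and 2790 in the amygdala, both near its caudate values. Rgs9 and Adora2a had accumbens values between those of the caudate putamen and the prefrontal cortex, with 5965 and 6124 for Rgs9 and 6902 and 6613 for Adora2a.

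**Figure D5:**
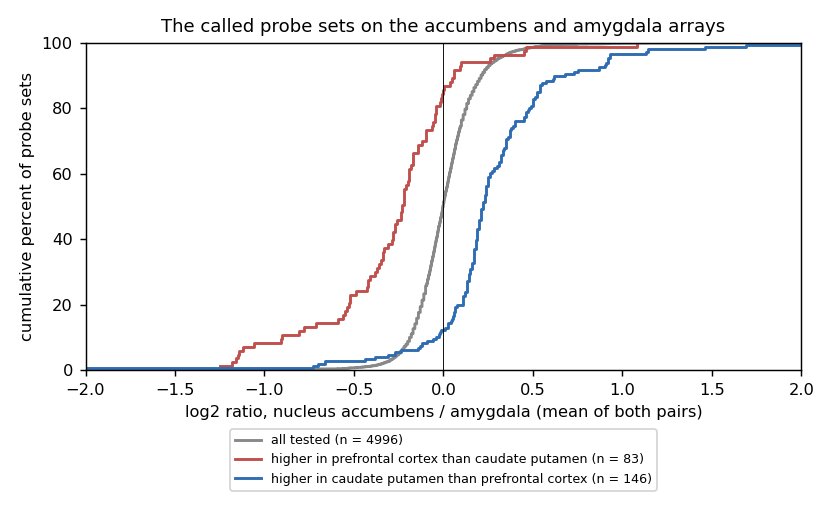
Lines give the cumulative percent of probe sets (vertical axis) up to a log2 ratio of nucleus accumbens over amygdala (horizontal axis, mean of the saline and cocaine pairs, drawn from -2 to 2), in grey for all 4996 tested probe sets with values, in red for 83 higher in the prefrontal cortex and in blue for 146 higher in the caudate putamen. The red line lies left of the grey one and the blue line right of it over most of the range, with medians of -0.23, 0.22 and -0.003.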

How the data were processed

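Total RNA of 10 rat brain samples was measured on single-colour arrays, and groups were taken from the sample labels. The authors deposited linear intensities, the expression index of the dChip program, per the labels; which version, model and scaling made it is not given in the sources used here. Of 8799 probe sets, 59 controls were left out. Of the other 8740, 7006 had 1 gene symbol in the platform annotation, 308 several and 1426 none, and only the first are named. All 6985 symbols looked up in the GRCr8 RefSeq gene table stood unchanged.

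No further normalization was applied. Zeros were treated as missing, log2 was taken, and the upper 60% by mean index over the 10 arrays (5244 probe sets, mean of at least 1808) were kept; 183 with a 0 on a prefrontal or caudate array were left out, so 5061 were tested. limma 3.58.1 in R 4.3.3 was fitted to 10 arrays with region and treatment as terms (4 residual degrees of freedom) and an intensity trend, and was tested on simulated data. Treatment as a term pairs the arrays of the regions; each pair has 1 array per region, so pair ratios have no test. Counts, sums and medians of the 23 gene lists use, for each gene, its probe set with the highest mean among those tested.

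Named are the 15 highest and 15 lowest differences that passed and had 1 sign in both pairs and the higher region at or above the median index of its arrays, the 4 markers, up to 4 members per list past the threshold or else the nearest, and up to 6 genes with a saline ratio under 1.5-fold and the largest cocaine ratio. Other genes named were chosen after their values were seen. The members and lists were chosen with earlier results of these data known. Alternatives were the handling of zeros and low values, the filter, the scaling, the trend, the treatment term and the arrays in the fit.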

Additional observations from a re-analysis of the deposited data

Results flagged for a closer look

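Zmym3, a zinc finger protein, was the 1 tested probe set with a ratio of at least 1.5-fold in opposite directions in the saline and cocaine pairs. Its log2 ratio of prefrontal cortex over caudate putamen was 1.32 on the saline arrays and -0.65 on the cocaine arrays. The index was 2160 on the prefrontal saline and 1811 on the prefrontal cocaine array, against 868 on the caudate saline and 2845 on the caudate cocaine array, so the caudate arrays were the lowest and the highest of the 4. The difference between the pairs was not tested, since each pair holds 1 array per region, and the regional difference did not pass in limma (adjusted p = 0.746).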

How the results depend on the processing

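With all arrays 231 probe sets passed, 84 higher in the prefrontal cortex and 147 in the caudate putamen, and 66 with a fold of at least 2. Leaving out each prefrontal or caudate array in turn gave 29 to 170 in all, 13 to 52 higher in the prefrontal cortex, 16 to 132 higher in the caudate putamen and 29 to 70 with a fold of at least 2. The saline pair alone gave 24, 9, 15 and 24, and the cocaine pair alone 23, 6, 17 and 23, in the same order. The fit of the 4 arrays alone gave 351, with 229 higher in the caudate putamen, and the fit without the amygdala pair 525, with 187 higher in the prefrontal cortex and 338 in the caudate putamen; the cause was not tested. No other setting moved a count by over 1.5 times: these were zeros raised to the 20th percentile (164 calls), a floor with zeros missing (232), probe sets with a zero also tested (234), no filter (216), a filter on the 4 arrays (232), equal medians (210), quantile normalization (231), no intensity trend (224) and no treatment term (294). The share of calls higher in the prefrontal cortex was 36.4% with all arrays, 56.5% without the prefrontal cocaine array and 22.4% without the prefrontal saline array. Of the 65 probe sets of named genes, 0 changed direction under any of these settings. Many crossed the threshold with the saline pair alone or when a single array was left out. More did so without the caudate cocaine or the caudate saline array than without the prefrontal cocaine array, and fewer without the prefrontal saline array. A loss without the prefrontal cocaine array is therefore not particular to that array. The 65 are those picked by the naming rules given above, and the other genes named, such as Hpca, Snap25 and Ndufa4, are not among them. Indices near the lowest values, such as the prefrontal values of Drd1 and Gnal, limit how well large ratios are known.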

Other observations

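Some genes that differed between the prefrontal cortex and the caudate putamen had their highest or lowest values in the ventral tegmental area, the site of dopamine cell bodies. Resp18, a protein of secretory granules that was higher in the caudate putamen (8174 on the saline and 7709 on the cocaine array) than in the prefrontal cortex (4112 and 3780), had 29429 and 23452 there. Rasgrf1, higher in the prefrontal cortex (6138 and 4288) than in the caudate putamen (2830 and 2224), had 10459 and 8116. Arpp21, with 15635 and 16092 in the caudate putamen and 2606 and 1648 in the prefrontal cortex, had 494 and 578. Vsnl1 had 9975 and 10223 in the ventral tegmental area, close to its prefrontal values of 13096 and 10778, whereas the brighter Olfm1 probe set had 4454 and 4170, close to its caudate values of 4613 and 4758, and the second had 4939 and 5102, above its caudate values of 2470 and 2586. These values were given no test.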
